A study of Mus musculus with 18 samples.

Results

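The 4 Hox gene clusters of the mouse were examined through 38 member genes, of which 10 lie in cluster A on chromosome 6, 10 in cluster B on chromosome 11, 9 in cluster C on chromosome 15 and 9 in cluster D on chromosome 2. An accessible region was counted as a Hox region where its strongest summit lay in the gene body of a member or within 50 kb of it, and each region was given to the nearest member. By that rule 320 of the 358828 regions of 6 peak lists were Hox regions, and 612 of 597826 summit rows were. The rule used position alone, so none of the enrichment values below chose the genes or the regions. Genes other than the 38 members were not used in the assignment. The regions nearest to the 50 kb limit were, on the inside, 1 at 48.5 kb from Hoxb13 in the 8-week lists, with fold enrichment between 21.2 and 27.6, and weak summits at 49.93 kb (5-fluorouracil HSC, fold 2.40) and 49.95 kb (vehicle HSC, 2.42) from Hoxc4 in the 16-week lists. On the outside, a region 50.4 kb from Hoxc4 was found in all 6 lists, with fold enrichment between 8.58 and 11.3.

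Open chromatin was profiled by ATAC-seq, in which the transposase Tn5 cuts and tags accessible DNA, in haematopoietic stem cells (HSC) and haematopoietic progenitor cells (HPC) of mice. Among the 8-week-old mice there were 2 samples of knockout HSC, 2 of wild-type HSC, 2 of knockout HPC and 4 of wild-type HPC. Knockout cells carried Kmt2c f/f with Vav-Cre and are labelled Kmt2c -/-, and the other 8-week cells were wild type. Kmt2c, also called Mll3, encodes a methyltransferase that marks histone H3 at enhancers, and Vav-Cre is active throughout the blood lineages. Among the 16-week-old mice, all wild type, 4 samples were HSC after 5-fluorouracil, a drug that kills dividing cells, given at 150 mg/kg every 3 weeks for 3 injections, and 4 were HSC after PBS vehicle on the same schedule. The labels name no markers for the sort. Each group had 1 peak list that pools its 2 or 4 samples, so no p-value and no spread between replicates can be given. Read depth was unknown. Peak lists do not show whether the floxed part of Kmt2c was deleted, so the genotype labels were not checked.

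Hox genes encode homeodomain transcription factors that give cells their position along the body axis. Within a cluster the genes are arranged by paralogue number in the order in which they act, from the anterior genes through the central to the posterior genes, and all members of a cluster are read in the same direction. In blood, genes of clusters A and B are active in stem and early progenitor cells and are silenced as cells mature. Hox proteins bind DNA together with the TALE homeodomain cofactors of the Pbx, Meis and Pknox families.

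Promoter windows of 5 members are printed because a called region reached into them by at least 1 base in the lists named, and because together they show how much the lists differ at Hox starts. They come from RefSeq on GRCm38.p6, run 5′ to 3′ on the strand of the gene, and span 250 bases before to 50 after the annotated start. Capitals mark matches on either strand to the retinoid receptor half-site AGGTCA, the MEIS motif TGACAG or the CTCF core motif. The Hoxa3 window (chr6:52213018-52213317, minus strand) was reached in all 6 lists, by 95 to 300 of its bases, and it was the only one of the 24 windows of 22 members for which that held. The Hoxa5 window (chr6:52204538-52204837, minus strand) was reached in the 4 HSC lists, by 126 to 249 bases. The Hoxb4 window (chr11:96318017-96318316, plus strand) was reached by 22 bases in wild-type HPC, 188 in 5-fluorouracil HSC and 104 in vehicle HSC. The Hoxc4 window (chr15:103034145-103034444, plus strand) was reached in both HPC and both 16-week lists, by 206 to 215 bases. The Hoxd13 window (chr2:74667975-74668274, plus strand) was reached in the 16-week lists alone, by 93 bases in 5-fluorouracil HSC and 64 in vehicle HSC.
Hoxa3: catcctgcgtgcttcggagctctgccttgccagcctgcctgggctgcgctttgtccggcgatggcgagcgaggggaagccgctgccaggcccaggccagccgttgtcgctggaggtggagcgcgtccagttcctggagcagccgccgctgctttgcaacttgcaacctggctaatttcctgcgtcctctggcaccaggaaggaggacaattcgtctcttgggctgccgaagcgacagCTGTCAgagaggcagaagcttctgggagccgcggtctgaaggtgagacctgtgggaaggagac
Hoxa5: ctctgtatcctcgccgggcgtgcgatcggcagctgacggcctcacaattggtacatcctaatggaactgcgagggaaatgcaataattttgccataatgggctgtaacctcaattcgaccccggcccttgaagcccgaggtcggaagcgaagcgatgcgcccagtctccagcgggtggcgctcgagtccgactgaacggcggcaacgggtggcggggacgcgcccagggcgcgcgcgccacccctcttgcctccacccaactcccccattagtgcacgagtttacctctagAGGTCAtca
Hoxb4: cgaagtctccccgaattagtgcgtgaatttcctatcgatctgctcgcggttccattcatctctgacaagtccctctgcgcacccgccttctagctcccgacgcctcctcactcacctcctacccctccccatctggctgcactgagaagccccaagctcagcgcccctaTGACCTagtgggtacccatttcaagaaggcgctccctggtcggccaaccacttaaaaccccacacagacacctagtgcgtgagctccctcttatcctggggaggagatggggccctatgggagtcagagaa
Hoxc4: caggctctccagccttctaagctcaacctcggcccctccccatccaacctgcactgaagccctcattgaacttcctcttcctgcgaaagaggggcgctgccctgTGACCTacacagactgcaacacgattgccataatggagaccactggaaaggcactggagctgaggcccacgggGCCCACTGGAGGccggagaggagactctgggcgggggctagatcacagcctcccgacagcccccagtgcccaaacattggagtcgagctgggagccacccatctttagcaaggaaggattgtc
Hoxd13: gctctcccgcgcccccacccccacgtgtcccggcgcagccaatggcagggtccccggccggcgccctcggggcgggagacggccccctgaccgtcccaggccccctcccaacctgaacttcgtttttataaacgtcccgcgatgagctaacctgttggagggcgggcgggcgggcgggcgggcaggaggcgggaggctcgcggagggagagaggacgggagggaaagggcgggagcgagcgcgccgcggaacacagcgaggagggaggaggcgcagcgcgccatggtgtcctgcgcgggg
Of the 24 windows, 14 were reached by a region in no list. A match to letters is a description and not a site. AGGTCA was in 29.2% of the Hox windows, against 16.3% of all 32817 promoter windows, and the CTCF core was in 16.7% against 8.61%. The PBX-HOX composite TGATTNAT was in 8.33%, against 3.22%, and GGTTCA, another retinoid half-site, in 12.5% against 10.4%. TGACAG was in 8.33%, against 19.2%, and the RUNX motif TGTGGT in 4.17% against 16.8%. The GATA motif AGATAA and the ETS motif CCGGAAGT were in none of the 24, against 11.2% and 3.89% of all windows. No matches of different motifs overlapped. The Hox windows had a median GC content of 57.6%, against 52.7% for all windows, and a median of 14.5 CpG dinucleotides, against 7.0.

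The lists differed in length, and this touched every count below. They held 48620 regions in knockout HSC, 40073 in wild-type HSC, 52840 in knockout HPC, 65832 in wild-type HPC, 71363 in 5-fluorouracil HSC and 80100 in vehicle HSC. Of the HSC markers, Mecom, Hlf and Fgd5 had a region within 1 kb of a start in all 6 lists, while Slamf1 had none in the 8-week HSC lists and Ly6a had one only in vehicle HSC. The defining T cell markers Cd3e, Cd3d and Cd8a, the macrophage markers C1qa and Marco, and Pdgfra and Cdh5 of stroma and endothelium had none in any list. Of 6 stroma and endothelium markers, 3 had a region in 5-fluorouracil HSC and 4 in vehicle HSC, against 1 or 2 in the 8-week lists. Over all genes the share was 63.6% in 5-fluorouracil HSC, 65.5% in vehicle HSC and between 52.2% and 59.7% in the 8-week lists. The 3 erythroid markers had one in every list. The part of other cells in the Hox counts was not tested, and in bulk samples a site open in a few cells cannot be told apart from one weakly open in all.

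Clusters A and B held most of the accessible regions, and C and D few, in every list. Cluster A had 13 regions in knockout HSC, 13 in wild-type HSC, 13 in knockout HPC, 18 in wild-type HPC, 29 in 5-fluorouracil HSC and 28 in vehicle HSC. Cluster B had 16 regions in knockout HSC, 11 in wild-type HSC, 15 in knockout HPC, 22 in wild-type HPC, 26 in 5-fluorouracil HSC and 27 in vehicle HSC. Cluster C had 1 region in knockout HSC, 1 in wild-type HSC, 5 in knockout HPC, 8 in wild-type HPC, 17 in 5-fluorouracil HSC and 15 in vehicle HSC. Cluster D had 3 regions in knockout HSC, 2 in wild-type HSC, 5 in knockout HPC, 7 in wild-type HPC, 12 in 5-fluorouracil HSC and 13 in vehicle HSC. The longer 16-week lists thus held the most regions of all 4 clusters.

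This order of the lists did not hold when each was reduced to its 40073 strongest regions by −log10 p, the peak caller's measure of how far the signal exceeds the local background. Hox regions then numbered 26 in knockout HSC, 27 in wild-type HSC, 27 in knockout HPC, 28 in wild-type HPC, 31 in 5-fluorouracil HSC and 28 in vehicle HSC. Cluster A then had 13 regions in each of the 4 HSC lists and 9 in each of the HPC lists. Cluster D had 2 regions in each of the 4 HSC lists and 5 in each of the HPC lists. In cluster B the counts were 11 in knockout HSC, 11 in wild-type HSC, 12 in knockout HPC, 12 in wild-type HPC, 16 in 5-fluorouracil HSC and 13 in vehicle HSC. Cluster C kept 1 region in wild-type HSC, 1 in knockout HPC and 2 in wild-type HPC, and none in knockout HSC or in the 16-week lists. In cluster D these were the same 2 loci in every HSC list and the same 5 in both HPC lists. In cluster A 11 of the 14 loci found in any HSC list were in all 4, and 7 of the 10 found in either HPC list were in both. The 16-week lists no longer held more regions of clusters C and D than the others. The division by cell type was not tested. This reduction was chosen after seeing the data.

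**Figure D1:**
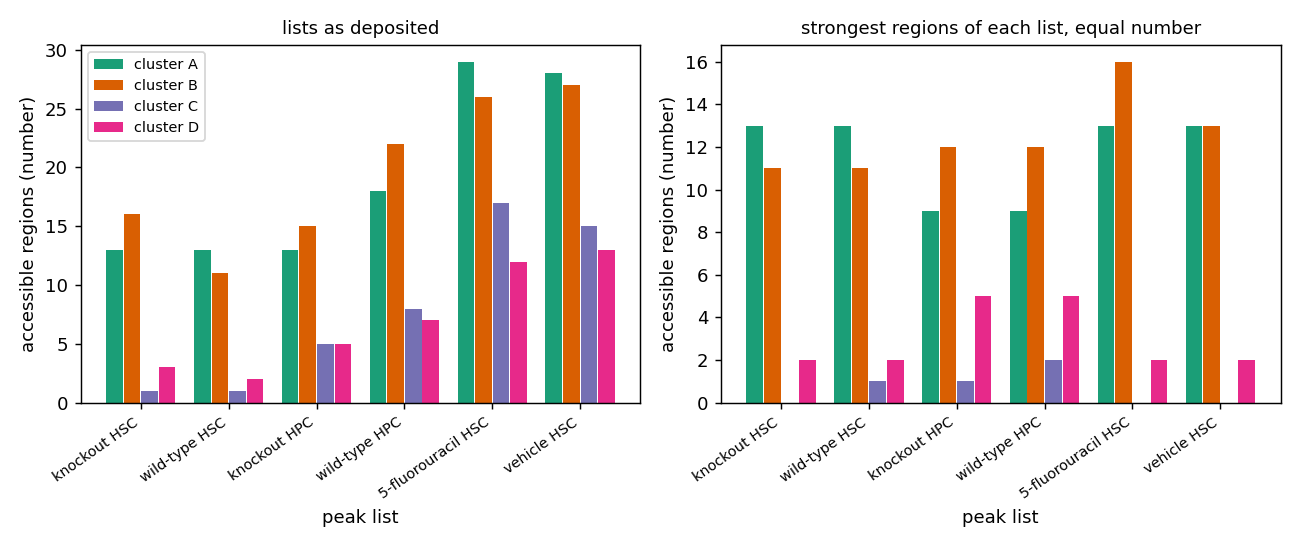
Number of accessible regions (vertical axis) per Hox cluster (colours) in each of the 6 peak lists, in the lists as deposited (left) and in the 40073 strongest regions of each list (right); the vertical scales differ. At equal number, cluster A has 13 regions in every HSC list and 9 in the HPC lists, and cluster D has 2 in every HSC list and 5 in the HPC lists.

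Merging the lists gave 96 Hox loci among 94178 loci. Of these, 20 Hox loci (20.8%, 95% Wilson interval 13.9 to 30) were in all 6 lists, against 32.2% of all loci. Cluster A had 9 of its 32 loci in all 6 lists, cluster B 9 of 28, cluster C 0 of 20 and cluster D 2 of 16. A further 24 Hox loci (25%, 17.4 to 34.5) were in both 16-week lists alone, against 10.8% of all loci. None was in knockout HSC alone or wild-type HSC alone, which holds for 0.31% and 0.0573% of all loci. Intervals cover counting error only and treat regions as independent, which neighbours are not. At 40073 regions a list there were 43 Hox loci, with 17 (39.5%) in all 6 lists against 43.9% of all loci, and 2 (4.65%) in both 16-week lists alone against 2.75%.

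**Figure D2:**
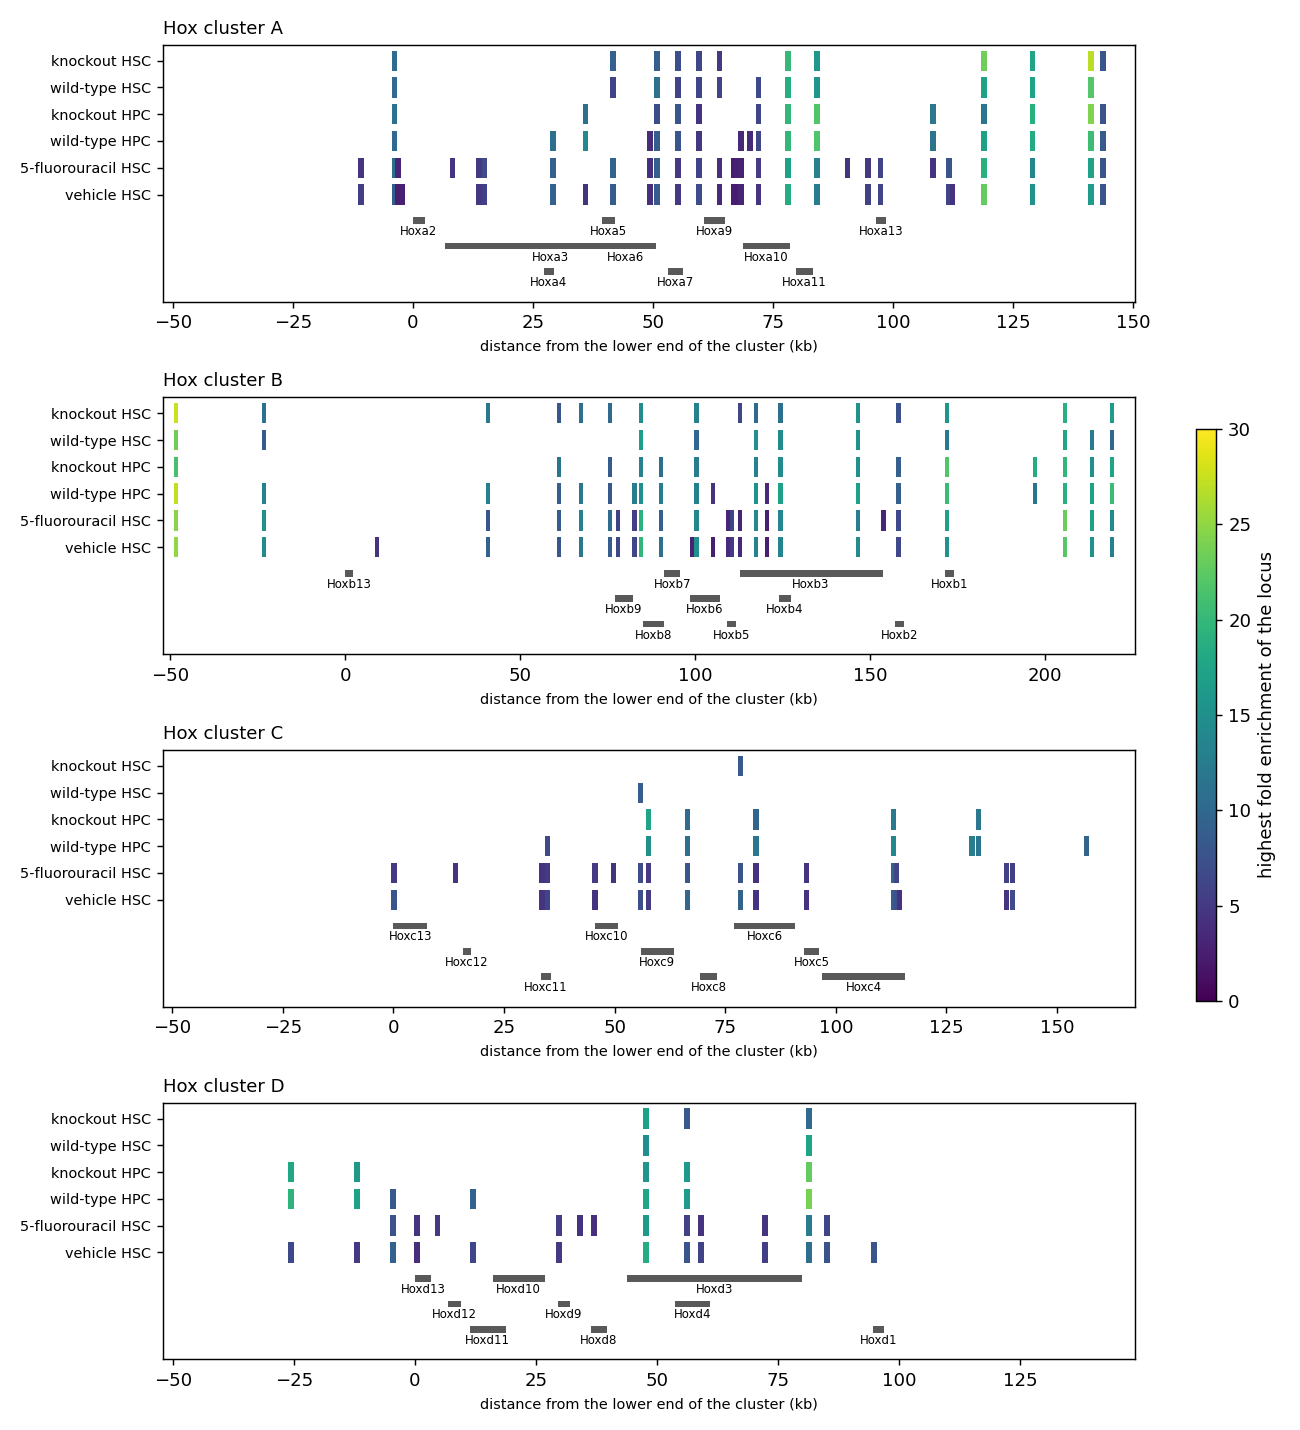
Accessible regions of the 4 Hox clusters in each peak list, placed by distance in kb from the lower end of the cluster; each bar is a locus drawn at a fixed width, its colour is the highest fold enrichment in that list, and grey bars below are gene bodies. Columns of bars in all 6 lists are seen in clusters A and B, whereas most bars of cluster C are in the 16-week and HPC lists.

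Hox regions were weak within their lists. Fold enrichment is the authors' ratio of signal to local background, and its median over Hox regions was 10.9 in knockout HSC, 12.5 in wild-type HSC, 13.2 in knockout HPC, 12.4 in wild-type HPC, 5.78 in 5-fluorouracil HSC and 6.48 in vehicle HSC. Over all regions the medians were 15.1 in knockout HSC, 14.6 in wild-type HSC, 14.2 in knockout HPC, 13.7 in wild-type HPC, 10.4 in 5-fluorouracil HSC and 10.2 in vehicle HSC. Every list had a lower median over its Hox regions than over all its regions. Single clusters did not all follow this. The median of cluster D was above that of its list in wild-type HSC (16.2, from 2 regions), knockout HPC (16.1) and wild-type HPC (17.1). Cluster B in knockout HPC (14.3) was just above its list. The strength percentile, which ranks a region by −log10 p among all regions of its own list, had a Hox median of 40.8 in knockout HSC, 43.9 in wild-type HSC, 40.8 in knockout HPC, 42.2 in wild-type HPC, 27.3 in 5-fluorouracil HSC and 34.8 in vehicle HSC.

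Within cluster A the ranks by fold and by −log10 p differed between the interior and the flanks. The interior regions, between the outermost members, had a median fold percentile of 10.5 in knockout HSC, 3.1 in wild-type HSC, 10.9 in knockout HPC, 11.8 in wild-type HPC, 14.7 in 5-fluorouracil HSC and 16.8 in vehicle HSC. Their median strength percentile was 51.0 in knockout HSC, 43.9 in wild-type HSC, 47.9 in knockout HPC, 31.4 in wild-type HPC, 33.5 in 5-fluorouracil HSC and 46.6 in vehicle HSC. The flanking regions had a median fold percentile of 61.4 in knockout HSC, 63.8 in wild-type HSC, 35.4 in knockout HPC, 51.3 in wild-type HPC, 35 in 5-fluorouracil HSC and 30 in vehicle HSC. Their median strength percentile was between 35.2 (knockout HPC) and 50.2 (wild-type HPC). In every list the interior regions thus ranked lower by fold than by −log10 p, and lower by fold than the flanks. The region in the body of Hoxa7 in vehicle HSC, for example, was at the 75.5th strength percentile and the 13.8th fold percentile. A lower rank by fold than the flanks was not particular to cluster A. The interior of cluster B also had the lower median fold percentile in every list but wild-type HSC (49.9 against 37.0).

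Few Hox genes were open at their starts in the 8-week lists. A member was counted where a region lay within 1 kb of its RefSeq start site, or of either gene end for the 16 members without an entry. This held for 10 of 38 members (26.3%) in knockout HSC, 8 (21.1%) in wild-type HSC, 9 (23.7%) in knockout HPC and 13 (34.2%) in wild-type HPC. Of all 21887 protein-coding genes, 55.7% had such a region in knockout HSC, 52.2% in wild-type HSC, 54.9% in knockout HPC and 59.7% in wild-type HPC. In 5-fluorouracil HSC 24 members had one (63.2%), against 63.6% of all genes, and in vehicle HSC 27 (71.1%), against 65.5%. The Hox share was thus below the background in the 8-week lists and near it in the 16-week lists. At 40073 regions a list it was below the background in all 6. The Hox share was then 23.7% in knockout HSC, 21.1% in wild-type HSC, 15.8% in knockout HPC, 23.7% in wild-type HPC, 31.6% in 5-fluorouracil HSC and 26.3% in vehicle HSC, and the share of all genes was 51.5% in knockout HSC, 52.2% in wild-type HSC, 48.6% in knockout HPC, 48.7% in wild-type HPC, 54.8% in 5-fluorouracil HSC and 54.8% in vehicle HSC.

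For the 16 members without an entry, a region at either gene end can lie at the downstream one. With their start set at the upstream end, by the strand of the other members of the cluster, open starts numbered 9 in knockout HSC, 8 in wild-type HSC, 8 in knockout HPC, 10 in wild-type HPC, 24 in 5-fluorouracil HSC and 27 in vehicle HSC. A start is used in this sense for each member named from here on, a choice made after seeing the data.

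**Figure D3:**
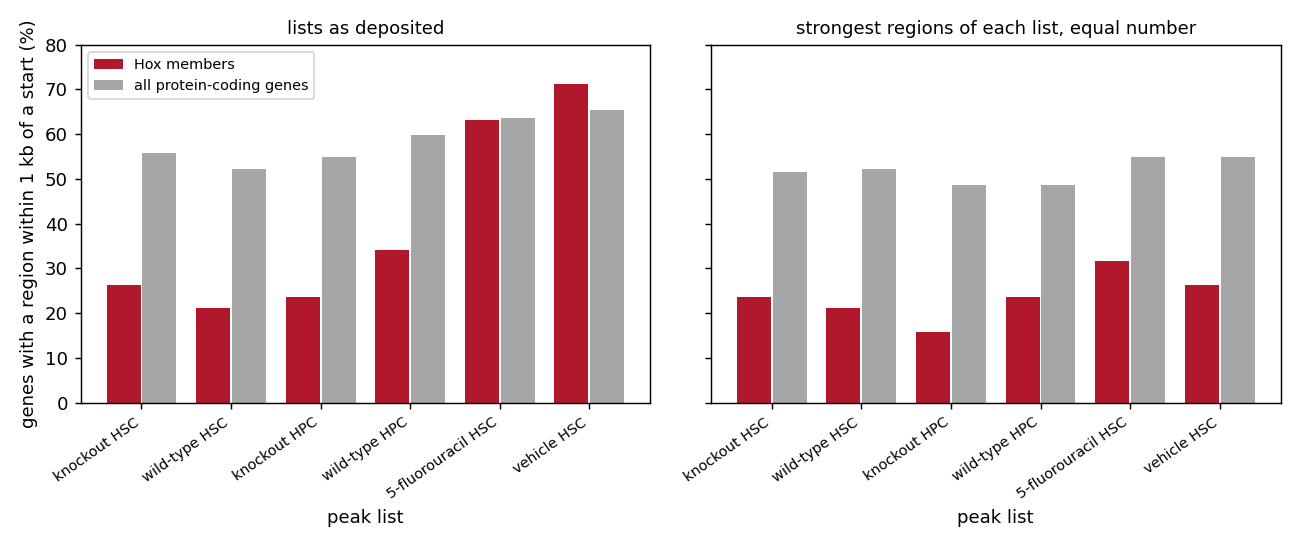
Share of genes with an accessible region within 1 kb of a start, or of either gene end where RefSeq's promoter table has no entry (vertical axis, %), for the 38 Hox members and for all protein-coding genes in each peak list, in the lists as deposited (left) and at 40073 regions a list (right). The Hox share is 63.2% and 71.1% in the 16-week lists as deposited, and between 15.8% and 31.6% in every list at equal number.

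Anterior genes, with paralogue numbers 1 to 4, were open at the start for 5 of 11 in knockout HSC, 3 in wild-type HSC, 4 in knockout HPC, 5 in wild-type HPC, 7 in 5-fluorouracil HSC and 8 in vehicle HSC. Of the 11 central genes, numbered 5 to 8, a start was open for 2 in each of the 8-week lists, 7 in 5-fluorouracil HSC and 7 in vehicle HSC. Of the 16 posterior genes, numbered 9 to 13, it was open for 2 in knockout HSC, 3 in wild-type HSC, 2 in knockout HPC, 3 in wild-type HPC, 10 in 5-fluorouracil HSC and 12 in vehicle HSC. The share of all genes was not counted with starts set in this way. With either gene end allowed where there is no entry, it was between 52.2% and 59.7% in the 8-week lists. It was then 63.6% in 5-fluorouracil HSC and 65.5% in vehicle HSC. Each class was below that share in every 8-week list, at 45.5% or less. In 5-fluorouracil HSC the classes lay between 62.5% and 63.6%. In vehicle HSC the central genes were below that share and the other classes above it. In all 6 lists a start was open at 6 members, namely Hoxa3, Hoxa7, Hoxa10, Hoxa11, Hoxb1 and Hoxb4. At Hoxa7 and Hoxa11 the region lay within 1 kb of the start but reached into the promoter window in no list. In no list was a start open at 10 members, namely Hoxa2, Hoxa6, Hoxb8, Hoxb13, Hoxc8, Hoxc12, Hoxd3, Hoxd4, Hoxd10 and Hoxd12. Hoxb8 has a RefSeq start inside its gene body, so its upstream gene end was not used. A locus with its summit 0.433 kb beyond that end, 2.94 kb from the RefSeq start, was called in all 6 lists. Its strength percentile was between 42.5 (knockout HPC) and 81.7 (vehicle HSC).

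In cluster A the regions of highest fold lay at or beyond its posterior end. The highest strength percentile was near Hoxa13 in knockout HSC (86.9), knockout HPC (91.6) and wild-type HPC (90.0), and at the start of Hoxa3 in wild-type HSC (78.8), 5-fluorouracil HSC (88.5) and vehicle HSC (88.4). Hoxa13, which patterns the hands, feet and genital tract, had a highest fold of 26.9 in knockout HSC, 22.0 in wild-type HSC, 24.2 in knockout HPC, 20.7 in wild-type HPC, 19.0 in 5-fluorouracil HSC and 22.8 in vehicle HSC. These regions lay outside the cluster, 42.8 kb beyond the gene in the 8-week lists and 20.3 kb beyond it in the 16-week lists, and its start had a region only in vehicle HSC (fold 6.06). In 5-fluorouracil HSC the same locus was called in the body of Hoxa13 (fold 6.09), beyond 1 kb from the start. Hoxa10, which acts in stem and progenitor cells and in the uterus, had fold 20.1 in knockout HSC, 18.7 in wild-type HSC, 19.7 in knockout HPC, 19.7 in wild-type HPC, 17.2 in 5-fluorouracil HSC and 18.5 in vehicle HSC at its upstream start. Hoxa11, needed for the forearm and the kidney, had fold 16.0 in knockout HSC, 15.6 in wild-type HSC, 21.8 in knockout HPC, 21.7 in wild-type HPC, 12.9 in 5-fluorouracil HSC and 12.4 in vehicle HSC at its start. The starts of Hoxa10 and Hoxa11 were thus open in every list, beside a posterior neighbour whose start was open in 1.

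Hoxa5, which acts in lung development, was open at its start in the 4 HSC lists and in neither HPC list. Its fold was 9.20 in knockout HSC, 5.94 in wild-type HSC, 9.62 in 5-fluorouracil HSC and 8.63 in vehicle HSC, and its strength percentile was 32.2 in knockout HSC, 0.5 in wild-type HSC, 60.0 in 5-fluorouracil HSC and 54.6 in vehicle HSC. The wild-type HSC call was thus among the weakest of its list. Hoxa9, whose product sustains stem cells and drives leukaemias, had a start region in the 16-week lists alone, with fold 3.99 in 5-fluorouracil HSC and 3.36 in vehicle HSC. The same locus was in the body of Hoxa9, beyond 1 kb from the start, in knockout HSC (fold 5.00, 24.9th strength percentile) and wild-type HSC (5.98, 37.8th) and was missing from both HPC lists. It and the Hoxa5 locus were the only 2 Hox loci (2.08%) in all 4 HSC lists and no HPC list, against 1.83% of all loci. A neighbouring locus 1.23 kb from Hoxa9 was in all 6 lists, at the 50.5th strength percentile in knockout HSC, 43.9th in wild-type HSC, 15th in knockout HPC, 28.7th in wild-type HPC, 76.8th in 5-fluorouracil HSC and 85.6th in vehicle HSC.

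Hoxa3 and Hoxa7 were open at their starts in every list, and Hoxa4 in 3. Hoxa3, which is needed for the thymus and parathyroid, had fold 8.94 in knockout HSC, 11.1 in wild-type HSC, 6.97 in knockout HPC, 8.81 in wild-type HPC, 9.07 in 5-fluorouracil HSC and 8.52 in vehicle HSC. Hoxa7, a central gene that acts in the trunk skeleton, had fold 7.23 in knockout HSC, 5.92 in wild-type HSC, 7.86 in knockout HPC, 7.89 in wild-type HPC, 5.08 in 5-fluorouracil HSC and 4.93 in vehicle HSC. Hoxa4 had a start region in wild-type HPC (fold 10.9), 5-fluorouracil HSC (9.02) and vehicle HSC (9.39). Hoxa2, which patterns the hindbrain and face, had no start region, and Hoxa6 was the nearest member of no region at all.

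In cluster B the highest fold lay outside the cluster, nearest to Hoxb13, in 5 lists and at the start of Hoxb1 in knockout HPC. The highest strength percentile was at a locus in the body of Hoxb3 in all lists but knockout HSC. The locus 48.5 kb from Hoxb13, the gene that patterns the prostate, had fold 27.6 in knockout HSC, 23.4 in wild-type HSC, 21.2 in knockout HPC, 27.2 in wild-type HPC, 24.6 in 5-fluorouracil HSC and 25 in vehicle HSC. Hoxb1, which sets the identity of a hindbrain segment, had a highest fold of 19.1 in knockout HSC, 17.8 in wild-type HSC, 21.8 in knockout HPC, 20.5 in wild-type HPC, 23.1 in 5-fluorouracil HSC and 22.1 in vehicle HSC. At the start of Hoxb1 the fold was 15.7 in knockout HSC, 12.1 in wild-type HSC, 21.8 in knockout HPC, 20.4 in wild-type HPC, 16.7 in 5-fluorouracil HSC and 15.4 in vehicle HSC. Both genes therefore had regions in every list, but the strong ones near Hoxb13 lay far from it. The highest fold of Hoxb1 was at its start in knockout HPC alone. In the HSC lists it was at a locus 31.9 kb from Hoxb1, and in wild-type HPC at a locus 45.0 kb from it. Hoxb8, which blocks myeloid differentiation when overexpressed, had fold 14.7 in knockout HSC, 16.6 in wild-type HSC, 13.3 in knockout HPC, 14.8 in wild-type HPC, 19.2 in 5-fluorouracil HSC and 19.7 in vehicle HSC.

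Hoxb4, whose overexpression expands stem cells, was open at its start in every list. Its fold was 10.9 in knockout HSC, 14.4 in wild-type HSC, 14.3 in knockout HPC, 17.2 in wild-type HPC, 13.8 in 5-fluorouracil HSC and 13.6 in vehicle HSC. Its strength percentile was 53.9 in knockout HSC, 63.2 in wild-type HSC, 61.0 in knockout HPC, 77.9 in wild-type HPC, 86.6 in 5-fluorouracil HSC and 86.1 in vehicle HSC. By −log10 p the Hoxb4 region was thus in the stronger part of each list. By fold it was at the 26.0th percentile in knockout HSC, 48.7th in wild-type HSC and 50.2th in knockout HPC. Its fold percentile was 65.9 in wild-type HPC, 65.2 in 5-fluorouracil HSC and 65.5 in vehicle HSC. Hoxb5, used in mice as a marker of long-term stem cells, had a start region in 5-fluorouracil HSC (fold 3.24) and vehicle HSC (3.57). Hoxb3, a hindbrain gene also active in stem cells, was open at its start in knockout HSC (fold 6.41), 5-fluorouracil HSC (3.04) and vehicle HSC (3.47). A separate locus in the body of Hoxb3, 4.64 kb from its start, was in every list, with fold 10.4 in knockout HSC, 14.8 in wild-type HSC, 13.1 in knockout HPC, 15.3 in wild-type HPC, 14.1 in 5-fluorouracil HSC and 13.4 in vehicle HSC. Its strength percentile was 63.1 in knockout HSC, 79.7 in wild-type HSC, 68.6 in knockout HPC, 82.1 in wild-type HPC, 93.1 in 5-fluorouracil HSC and 91.8 in vehicle HSC.

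Hoxb2, which acts in the facial motor neurons, had a start region in knockout HSC (fold 7.39), 5-fluorouracil HSC (6.71) and vehicle HSC (6.48). In knockout HPC (fold 8.92) and wild-type HPC (9.01) its region lay over 1 kb from the start. Hoxb7 had one in knockout HPC (fold 11), wild-type HPC (12.4), 5-fluorouracil HSC (9.19) and vehicle HSC (11.1), and in neither 8-week HSC list. Hoxb9, which patterns the ribs, had one in 5-fluorouracil HSC (10.4) and vehicle HSC (8.73). The same locus was called in knockout HSC (fold 10.4), knockout HPC (8.58) and wild-type HPC (8.12), but beyond 1 kb from the start. Wild-type HPC also had a region just beyond the downstream end of Hoxb9 (12.4). Hoxb6 had a start region in vehicle HSC alone, with fold 2.91.

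Cluster C was almost closed in the 8-week HSC lists. Its only region in knockout HSC lay in Hoxc6, with fold 8.38 at the 5.5th strength percentile, and its only one in wild-type HSC lay at the start of Hoxc9, with fold 8.70 at the 6.3rd. Hoxc9, which sets the identity of thoracic motor neurons, had the highest mean fold of the cluster over lists, with 8.70 in wild-type HSC, 17.4 in knockout HPC, 14.9 in wild-type HPC, 6.87 in 5-fluorouracil HSC and 7.05 in vehicle HSC. The HPC values came from a separate locus inside the gene (chr15:102978525-102979134 at equal number), where the fold was 5.20 in 5-fluorouracil HSC and 5.18 in vehicle HSC. That locus had a strength percentile of 66.7 in knockout HPC and 65.6 in wild-type HPC, and of 18.1 in 5-fluorouracil HSC and 19.4 in vehicle HSC.

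Hoxc6 had a highest fold of 8.38 in knockout HSC, 9.70 in knockout HPC, 11.8 in wild-type HPC, 7.57 in 5-fluorouracil HSC and 9.34 in vehicle HSC, and a start region in the 16-week lists alone. The knockout HSC region was at the same locus but began just over 1 kb from the start of Hoxc6. Hoxc4, which acts in lymphocytes, was open at its start in knockout HPC (fold 12.3), wild-type HPC (13.8), 5-fluorouracil HSC (9.26) and vehicle HSC (8.80), and in neither 8-week HSC list. This is the window printed above that holds a CTCF core and an AGGTCA match. The loci in both HPC and both 16-week lists but no 8-week HSC list numbered 5 in all (5.21%, against 4.42% of all loci), of which 4 were in cluster C and 1 at Hoxb7 and Hoxb8.

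The other cluster C starts were open mainly in the 16-week lists and weakly. Hoxc11 had fold 4.43 in 5-fluorouracil HSC and 4.54 in vehicle HSC. A second locus in Hoxc11, 1.42 kb from its start, had 6.59 in wild-type HPC, 5.15 in 5-fluorouracil HSC and 6.44 in vehicle HSC. Hoxc13, needed for hair and nails, had 5.00 in 5-fluorouracil HSC and 8.07 in vehicle HSC. Hoxc10, a gene of lumbar motor neurons, had 5.25 in 5-fluorouracil HSC and 4.40 in vehicle HSC. Hoxc5 had 4.68 in 5-fluorouracil HSC and 4.31 in vehicle HSC. Hoxc8 and Hoxc12 had no region at the start in any list. None of the cluster C start regions of the 16-week lists was kept at 40073 regions a list.

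Cluster D had 2 loci in every list, both nearest to Hoxd3, which acts in the neck vertebrae. The highest fold at Hoxd3 was 17.1 in knockout HSC, 17.5 in wild-type HSC, 22.8 in knockout HPC, 23.8 in wild-type HPC, 16.1 in 5-fluorouracil HSC and 18.4 in vehicle HSC, and none of these regions lay at its start. At 1 of the 2 loci, just beyond the gene, the strength percentile was 18.9 in knockout HSC, 60.6 in wild-type HSC, 79.6 in knockout HPC, 82.6 in wild-type HPC, 60.5 in 5-fluorouracil HSC and 56.1 in vehicle HSC.

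Outside the posterior end of cluster D, 2 loci were called in the HPC lists and not in the 8-week HSC lists. The locus 25.5 kb beyond Hoxd13, the gene that patterns the digits, had fold 17.9 in knockout HPC, 19.5 in wild-type HPC and 6.58 in vehicle HSC. The locus 12.2 kb beyond it had fold 16.1 in knockout HPC, 17.1 in wild-type HPC and 5.00 in vehicle HSC. The strength percentile of the farther locus was 53.3 in knockout HPC, 55.0 in wild-type HPC and 17.8 in vehicle HSC, and that of the nearer locus was 43.3 in knockout HPC, 53.7 in wild-type HPC and 9.7 in vehicle HSC. Neither was called in 5-fluorouracil HSC. A locus in Hoxd4, which patterns the hindbrain and neck, had fold 8.23 in knockout HSC, 16.1 in knockout HPC, 16.4 in wild-type HPC, 5.79 in 5-fluorouracil HSC and 7.80 in vehicle HSC. Its strength percentile was 44.6 in knockout HPC and 55.8 in wild-type HPC, against 3.1 in knockout HSC.

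The starts of cluster D were seldom open. Hoxd13 had a start region in 5-fluorouracil HSC (fold 4.63) and vehicle HSC (3.94), and Hoxd9 in 5-fluorouracil HSC (5.36) and vehicle HSC (4.95). Hoxd11, which acts with Hoxa11 in the forearm and kidney, had one in wild-type HPC (9.31) and vehicle HSC (6.37). Hoxd8 had one in 5-fluorouracil HSC alone (4.08), and Hoxd1, a gene of pain-sensing neurons, in vehicle HSC alone (7.80). Hoxd10 and Hoxd12 were the nearest members of no region.

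**Figure D4:**
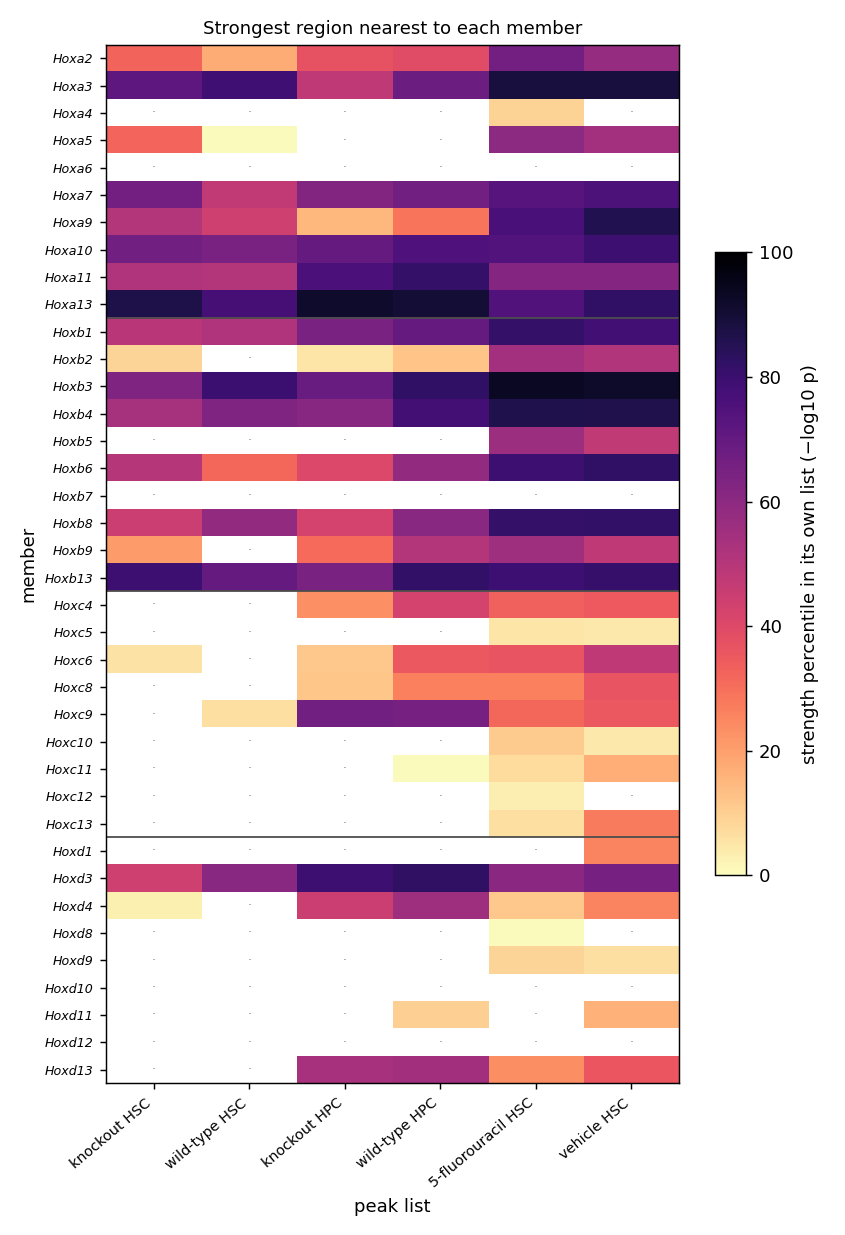
Strength percentile of the strongest region nearest to each Hox member (rows, by cluster and paralogue number) in each peak list (columns); blank cells with a dot have no region. Dark cells in every list are seen for Hoxa10, Hoxa13, Hoxb3 and Hoxb13, and 4 members (Hoxa6, Hoxb7, Hoxd10 and Hoxd12) are blank throughout.

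Knockout and wild-type HSC differed at few Hox regions, and in the proportion seen over all regions. Of 33 Hox regions in knockout HSC, 9 (27.3%, 15.1 to 44.2) were absent from wild-type HSC, against 25.9% of all regions. Of 27 in wild-type HSC, 3 (11.1%, 3.85 to 28.1) were absent from knockout HSC, against 9.99%. All 9 and all 3 were found in both 16-week HSC lists. Over all genes, 85.3% of the knockout-only regions were found in 5-fluorouracil HSC and 93.3% in vehicle HSC, and of the wild-type-only regions 90.3% were found in 5-fluorouracil HSC and 96.0% in vehicle HSC. With the longer list reduced to the length of the shorter, the shares were 3 of 26 (11.5%) in knockout HSC and 4 of 27 (14.8%) in wild-type HSC, against 15.3% and 15.1% over all regions.

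The knockout-only HSC regions of highest fold lay near Hoxb9. The locus 36.2 kb from it had fold 11.9 (14.9th strength percentile), that at 9.58 kb had 11.1 (13.7th) and that at 1.26 kb had 10.4 (20.9th). The 6 others were nearest Hoxb9, Hoxb2, Hoxb3, Hoxc6, Hoxd4 and Hoxa13, so that 6 of the 9 lay in cluster B. The 3 wild-type-only regions lay 39.7 kb from Hoxb1 (fold 12.5), in Hoxc9 (8.70) and in Hoxa10 (6.59). Both sets were weak, with a median strength percentile of 13.7 and 22.2, against 47.1 and 46.3 for the Hox regions of the same lists that were shared.

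In HPC every Hox region of the knockout list was also in the wild-type list. The count of 0 of 38 allows a share of up to 7.89% by a limit of 3 counts, or 9.18% by the Wilson interval, and 6.96% of all knockout HPC regions were absent from wild type. Of 55 regions in wild-type HPC, 16 (29.1%, 18.8 to 42.1) were absent from knockout HPC, against 25.9% over all regions. At equal length the shares were 3 of 38 (7.89%) in knockout HPC and 6 of 41 (14.6%) in wild-type HPC, against 12.7% and 13.5%. The wild-type-only regions of highest fold lay 23.1 kb from Hoxb13 (fold 13.4), 36.2 kb from Hoxb9 (13) and 15.1 kb from Hoxc4 (12.6). The first of these was also in all 4 HSC lists, and the region near Hoxc4 was in wild-type HPC alone. Shares in both cell types thus stayed near the background for the lists as deposited.

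Regions of 5-fluorouracil HSC absent from vehicle HSC numbered 9 of 84 (10.7%, 5.74 to 19.1), against 5.61% over all regions. Of 83 regions in vehicle HSC, 11 (13.3%, 7.56 to 22.2) were absent from 5-fluorouracil HSC, against 16.2%. The 5-fluorouracil regions without a vehicle region included 8 that were in no other list (8.33% of the Hox loci, against 2.76% of all loci), and all 9 had fold of at most 4.93. Those of highest fold lay 1.56 kb from Hoxd13 (4.93), 1.77 kb from Hoxc12 (4.50) and 9.79 kb from Hoxa13 (4.50). In vehicle HSC they lay at Hoxd1 (7.80), 25.5 kb from Hoxd13 (6.58) and in Hoxd11 (6.37). These sets were weak too, with a median strength percentile of 3.9 in 5-fluorouracil HSC and 4.3 in vehicle HSC.

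When the vehicle list was reduced to the 71363 regions of the other, its Hox regions numbered 64 in place of 83. The share absent from the other list was then 19 of 84 (22.6%, 15 to 32.6) in 5-fluorouracil HSC, against 8.93% over all regions, and 3 of 64 (4.69%, 1.61 to 12.9) in vehicle HSC, against 9.41%. In the lists as deposited, 9 of the 84 regions of 5-fluorouracil HSC had no vehicle region. The others of the 19 had one that the cut removed. Of the 19, 6 were in cluster A, 1 in B, 6 in C and 6 in D. The 3 in vehicle HSC were all in cluster D. At 40073 regions a list, where weak regions are left out, 5-fluorouracil HSC had 31 Hox regions and vehicle HSC 28.

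The HPC lists held more Hox regions that the HSC list of the same genotype lacked than the reverse, as they did over all regions. Of 55 regions in wild-type HPC, 31 (56.4%, 43.3 to 68.6) were absent from wild-type HSC, against 44.6% over all regions, and of 27 in wild-type HSC, 3 (11.1%) were absent from wild-type HPC, against 8.77%. In the knockout, 14 of 38 HPC regions (36.8%, 23.4 to 52.7) were absent from HSC, against 27.8%, and 9 of 33 HSC regions (27.3%, 15.1 to 44.2) were absent from HPC, against 21.9%. All 8 cluster C regions of wild-type HPC and all 5 of knockout HPC were among those absent from HSC of the same genotype. All 14 HPC-only regions of the knockout were also in wild-type HPC, as were 81.9% of such regions over all genes. At equal length the HPC-only share was 8 of 28 (28.6%) in wild type and 13 of 37 (35.1%) in knockout, both against 24.3%, and the HSC-only share was 7 of 27 (25.9%) in wild type and 9 of 33 (27.3%) in knockout, against 23.7% and 24.5%.

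The loci behind this division can be named. At 40073 regions a list, 3 Hox loci (6.98%, against 5.52% of all loci) were in all 4 HSC lists and neither HPC list, and all lay in cluster A, at Hoxa5 and nearest Hoxa9. In both HPC lists and no HSC list there were 4 Hox loci (9.30%, against 7.66%), of which 2 lay beyond Hoxd13, 1 in Hoxd4 and 1 in Hoxc9. Both shares were near those of all loci, so their number is not particular to Hox genes, and the clusters in which they lay were noted after the values were seen. Among the loci as deposited, 2 were in both HPC lists alone, 23.3 kb from Hoxb1 (fold 18.5 in knockout HPC and 11.5 in wild-type HPC) and 16.6 kb from Hoxc4 (11.9 and 11.8).

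**Figure D5:**
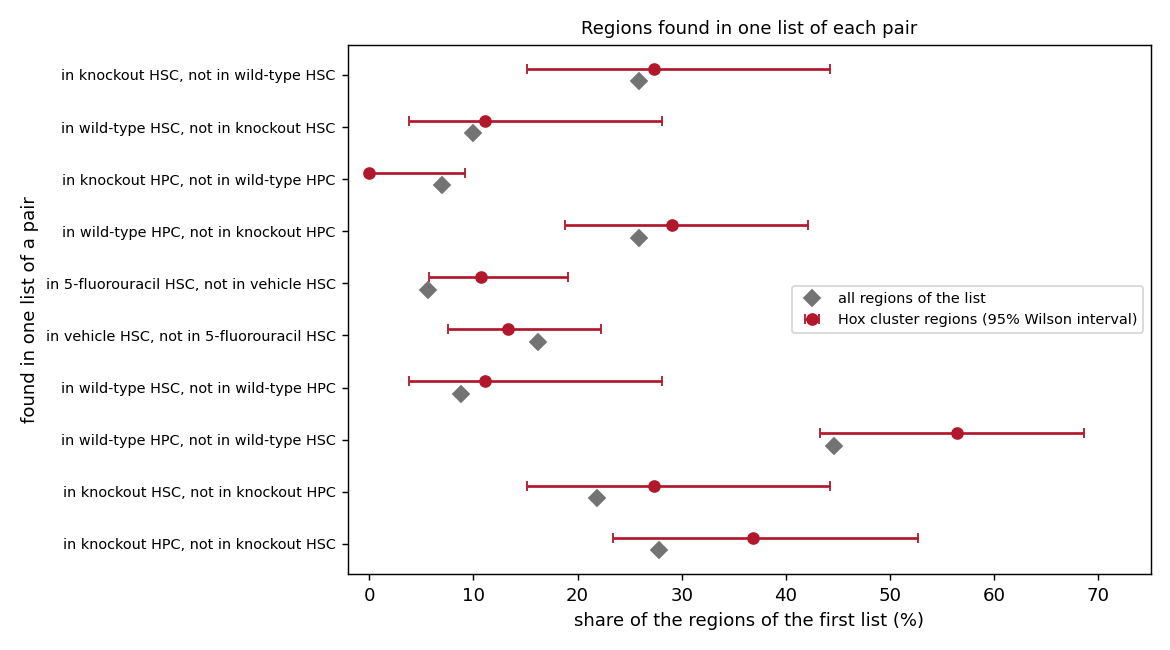
Share of the regions of the first-named list that had no overlapping region in the second-named list (horizontal axis, %), for Hox regions (circles, with 95% Wilson intervals) and for all regions of the list (diamonds). For 5-fluorouracil HSC the share of all regions, 5.61%, lies just below the Hox interval, which starts at 5.74%; in the other comparisons it lies inside the interval.

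Hox cofactors and regulators were counted by the same rule, under which between 52.2% (wild-type HSC) and 65.5% (vehicle HSC) of all genes had a region. Of 9 TALE genes, 6 had a start region in knockout HSC, 6 in wild-type HSC, 6 in knockout HPC, 7 in wild-type HPC, 8 in 5-fluorouracil HSC and 8 in vehicle HSC. Meis1, a partner of Hoxa9 in leukaemia, had fold 12.6 in knockout HSC, 11.3 in wild-type HSC, 14.6 in knockout HPC, 13.7 in wild-type HPC, 11.4 in 5-fluorouracil HSC and 11.1 in vehicle HSC. Of 9 regulators and neighbours of the clusters, a start was open for 4 in knockout HSC, 4 in wild-type HSC, 4 in knockout HPC, 5 in wild-type HPC, 5 in 5-fluorouracil HSC and 5 in vehicle HSC. Men1, Dot1l, Mllt3 and Psip1, whose products act with MLL proteins on Hox loci, had one in all 6 lists, whereas Cdx1, Cdx4, Evx1 and Evx2, homeobox genes of the embryo, had one in none. Lists of 9 genes are short, and nothing particular to either is read from these counts.

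The clusters also carry microRNA genes, whose 5p mature forms fall into 2 families by seed (bases 2 to 8, in capitals). They are shown because a region lay within 1 kb of some hairpins and not of others of the same seed.
mmu-miR-196b-5p: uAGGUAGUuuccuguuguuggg
mmu-miR-196a-5p: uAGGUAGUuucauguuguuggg
mmu-miR-10a-5p: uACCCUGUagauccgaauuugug
mmu-miR-10b-5p: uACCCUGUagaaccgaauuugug
The sequences are those of RefSeq on GRCm38.p6. Mir196b, between Hoxa9 and Hoxa10 (chr6:52230081-52230165, minus strand), had a region within 1 kb in wild-type HPC and both 16-week lists. Mir196a-1 in cluster B and Mir196a-2 in cluster C, which give the same mature sequence, had none in any list. Mir10a in cluster B (chr11:96317165-96317274, plus strand) and Mir10b in cluster D (chr2:74726070-74726137, plus strand) had one in both 16-week lists alone. The region near Mir10a belonged to the locus at the start of Hoxb4, which was called in all 6 lists. Only in the 16-week lists did that region extend to within 1 kb of the hairpin.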

How the data were processed

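Per the labels, ATAC-seq was carried out on 18 samples in 6 groups. The labels of a group point to a shared peak list, so each list was taken to pool its group. The submitters' processing notes name Bowtie2, MACS2 and the build mm10 (GRCm38). Versions, filters and the way samples were combined were not given in the sources used here. Total RNA stands as the molecule in the labels, at odds with an assay of DNA. The deposited fold enrichment is the authors' ratio of signal to local background at a summit. The deposited −log10 p of a row grows with depth, so both were ranked only within their own list. The deposited score was not used further.

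Overlapping rows of a list were merged with Python 3.11.15 and pandas 2.3.3. A region carries the highest fold and the highest −log10 p of its rows, which can come from different summits. Its strongest summit is that of highest −log10 p. A region was present in another list where they overlapped by at least 1 bp, and loci are the merged regions of the 6 lists. In all, 2 weak rows inside the window belong to a region whose strongest summit lies outside it and were not counted as a region. Gene bodies are those of RefSeq on GRCm38.p6, whose coordinates are those of mm10, and start sites come from its promoter table, which has 22 of the 38 members. Coordinates count from 1. No genome was given, so sequences of the regions were not analysed here. Shares carry 95% Wilson intervals. The merging, overlap and assignment were tested on simulated data. Members named in full were the 3 per cluster with the highest mean fold over lists (no region counted as 0), those with a start open in some lists only, and up to 3 loci per comparison with none of the other list within 1 kb; the other members and the printed windows were chosen after seeing the values. Some genes of the lists are not reported here. The members and gene lists were chosen with earlier results of these data known. Alternatives were other windows, thresholds, overlaps, start distances and list lengths.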

Additional observations from a re-analysis of the deposited data

Results flagged for a closer look

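At 2 loci near Hoxb9 the knockout and wild-type lists differed in opposite directions in the 2 cell types: a region was called in knockout HSC and not in wild-type HSC, and in wild-type HPC and not in knockout HPC. The locus chr11:96234798-96235412, 36.2 kb from Hoxb9, had fold enrichment of 11.9 in knockout HSC and 13 in wild-type HPC, at the 14.9th and 26.0th strength percentile of those lists. The locus chr11:96261349-96262061, 9.59 kb from Hoxb9, had fold 11.1 in knockout HSC and 12.0 in wild-type HPC, at the 13.7th and 37.6th percentile. With the lists of each pair at equal length, the knockout HSC region of neither locus was kept. With 1 pooled list a group the difference was not tested.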

How the results depend on the processing

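Shares of regions in 1 list of a pair moved beyond their interval only when the lists were cut to equal length. They were then 11.5% for knockout HSC against wild-type HSC, 14.6% for wild-type HPC against knockout HPC, 22.6% for 5-fluorouracil HSC against vehicle HSC, 4.69% for vehicle HSC against 5-fluorouracil HSC and 28.6% for wild-type HPC against wild-type HSC. With all lists at 40073 regions, added after seeing the data, members open at the start numbered 12 in 5-fluorouracil HSC and 10 in vehicle HSC. Region counts then became 9 (A), 12 (B) and 2 (C) in wild-type HPC, 13 (A), 16 (B), 0 (C) and 2 (D) in 5-fluorouracil HSC, 13 (A), 13 (B), 0 (C) and 2 (D) in vehicle HSC, 0 (C) in knockout HSC and 1 (C) in knockout HPC. In gene bodies alone cluster A had 5 regions in knockout HSC, 6 in wild-type HSC, 4 in knockout HPC, 8 in wild-type HPC, 12 in 5-fluorouracil HSC and 11 in vehicle HSC; cluster B had 7, 5, 7, 10, 12 and 14 in these lists; cluster C had 3 in knockout HPC, 4 in wild-type HPC and 10 in 5-fluorouracil HSC; cluster D had 1 in wild-type HSC, 2 in knockout HPC, 3 in wild-type HPC, 7 in 5-fluorouracil HSC and 7 in vehicle HSC. Within 10 kb cluster B had 10 in knockout HSC, 6 in wild-type HSC, 9 in knockout HPC and 14 in wild-type HPC, cluster C 5 in wild-type HPC and cluster D 3 in knockout HPC. Within 100 kb cluster C had 3 in knockout HSC, 4 in wild-type HSC, 8 in knockout HPC and 13 in wild-type HPC, and cluster D 5 in knockout HSC and 8 in knockout HPC. Without the weakest 25% of rows cluster C had 0 in knockout HSC and 0 in wild-type HSC, and cluster D 7 in 5-fluorouracil HSC. By construction these windows and cuts hold other numbers of regions. An overlap of 50%, windows of 200 bp around summits, start distances of 500 bp and 2 kb and the cluster's strand for members without an entry moved no result beyond these limits. Giving regions to the nearest gene end changed the count in 16 of 228 member and list pairs. No paired analysis was possible because each group has 1 pooled list, and for the same reason no replicate could be left out. Read depth is unknown, and its part in the number of weak Hox regions was not tested.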
